A study of Mus musculus with 2 samples.

Results

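A set of 53 dendritic cells was picked from subcutaneous EMT6 tumors of BALB/c mice by what their own RNA held, and their whole profile and subsets are described here. EMT6 is a mouse mammary carcinoma line used as a model of triple-negative breast cancer. A cell was kept when it had at least 200 genes and under 20% of its unique molecular identifiers (UMIs, each 1 counted RNA molecule) from mitochondrial genes. A kept cell counted as a dendritic cell when H2-Aa, H2-Ab1 and H2-Eb1, the chains of MHC class II, made up at least 0.5% of its UMIs and it carried at least 1 UMI of Flt3, Zbtb46, Xcr1, Clec9a, Ccr7, Fscn1, Cd209a, Batf3 or Il12b. It also had to hold under 0.1% of C1qa, C1qb and C1qc, under 1% of S100a8 and S100a9, and at most 2 UMIs of the keratins Krt8 and Krt18. These values of the readout chose 53 of 21985 kept cells, out of 23657 deposited, so the levels of the choosing genes are a description and not a finding.

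Both groups came from BALB/c mice injected with 200000 EMT6 cells, and both received the PARP inhibitor olaparib at 50 mg/kg and, for 3 days of each week followed by 4 days without drug, the PRMT5 inhibitor LLY-283, also at 50 mg/kg. The Olaparib + LLY-283 group had nothing more, and the Combo group also received anti-PD-1 antibody (200 µg every 3 days). Tumors of 3 mice were pooled into 1 library per group, so no p-value or standard error was possible. An effect of anti-PD-1 cannot be told apart from a difference between the pooled mice or between the library preparations. No untreated or single-agent tumor was analysed here. The libraries shared 39 cell barcodes, of which 0 belonged to a dendritic cell.

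Dendritic cells take up antigen, cut it into peptides and present these to T cells on MHC class I and class II. Conventional dendritic cells depend on the receptor Flt3 and include an Xcr1 and Clec9a lineage that is known for cross-presentation to CD8 T cells, and a lineage, part of which carries the lectin Cd209a, that is known for presentation to CD4 T cells. After activation, dendritic cells raise the chemokine receptor Ccr7 and the actin-bundling protein fascin (Fscn1) and migrate to the draining lymph node.

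Class II genes are switched on together by the coactivator Ciita, which is recruited to a promoter module that includes an X box and, closer to the start, a Y box. Class II chains were part of the choice of the dendritic cells. The stretch of promoter holding such a pair is shown for 2 of these chains, from RefSeq on build GRCm38.p6. The capitals mark the letters GNAACT, as found in the X box, and GATTGG, as found in the Y box, searched on both strands in the 250 bases before the start, with both on the same strand and 20 to 50 bases apart.
H2-Aa, chr17:34287852-34287919, minus strand: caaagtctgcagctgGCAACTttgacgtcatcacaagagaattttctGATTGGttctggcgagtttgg
H2-Eb1, chr17:34305761-34305827, plus strand: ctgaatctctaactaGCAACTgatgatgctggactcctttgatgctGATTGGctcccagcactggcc
The letters lay 32 bases apart in the H2-Aa stretch and 31 apart in the H2-Eb1 stretch, and the window of H2-DMb1 held the pair as well, 32 bases apart. The pair occurred in 141 of all 32851 promoter windows (0.429%), GATTGG alone in 14.6% and GNAACT alone in 37.3%. These letters were not paired in the windows of H2-DMa, H2-DMb2, H2-Oa, H2-Ob, Ctss and Lgmn. H2-Ab1, H2-Ea-ps, Cd74 and Ciita are named only.

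The dendritic cells were rare in both libraries. They numbered 26 of 16029 kept cells in the Olaparib + LLY-283 library, or 0.162% (exact Clopper-Pearson 95% interval 0.106 to 0.238%), and 27 of 5956 in the Combo library, or 0.453% (0.299 to 0.659%). These intervals, like the exact Poisson intervals of summed counts further on, cover counting error only, and not the spread between mice. The kept cells of the Combo library were also more deeply read (median of 14413.5 UMIs against 7414), and 1582 Combo cells against 81 had been dropped for mitochondrial UMIs. Among cells of at least 1000 UMIs, the rule found 23 of 14761 (0.156%) and 27 of 5318 (0.508%), and 13 (0.0881%, 0.0469 to 0.151%) and 19 (0.357%, 0.215 to 0.557%) after each cell was thinned to 1000 UMIs. The share was higher in the Combo library by every one of these counts.

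A second denominator was the set of kept cells with class II at or above 0.5%. Dendritic cells made up 26 of these 115 cells (22.6%, 15.3 to 31.4%) and 27 of these 70 (38.6%, 27.2 to 51.0%). Most of the others had no UMI of a choosing gene, and 61 and 22 of them passed the remaining limits. These were shallower than the dendritic cells, with medians of 1623 and 7476.5 UMIs. Just inside the class II limit, at 0.5 to 0.75%, lay 4 cells (0.561 to 0.612%) and 3 cells (0.574 to 0.619%), and just outside it, at 0.25 to 0.5%, lay 3 (0.287 to 0.386%) and 2 (0.268 to 0.295%).

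The dendritic cells of the Olaparib + LLY-283 library held 58810 UMIs in all, with 583 to 5421 per cell and a median of 1871. Those of the Combo library held 288401, with 1875 to 20795 per cell and a median of 9661. Their class II share ran from 0.561 to 3.13% (median 1.72%) and from 0.574 to 3.21% (median 1.87%), so the cells of both libraries covered the same range of class II at very different depth. Mitochondrial UMIs were low in both, with medians of 0.992 and 1.19%.

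**Figure D1:**
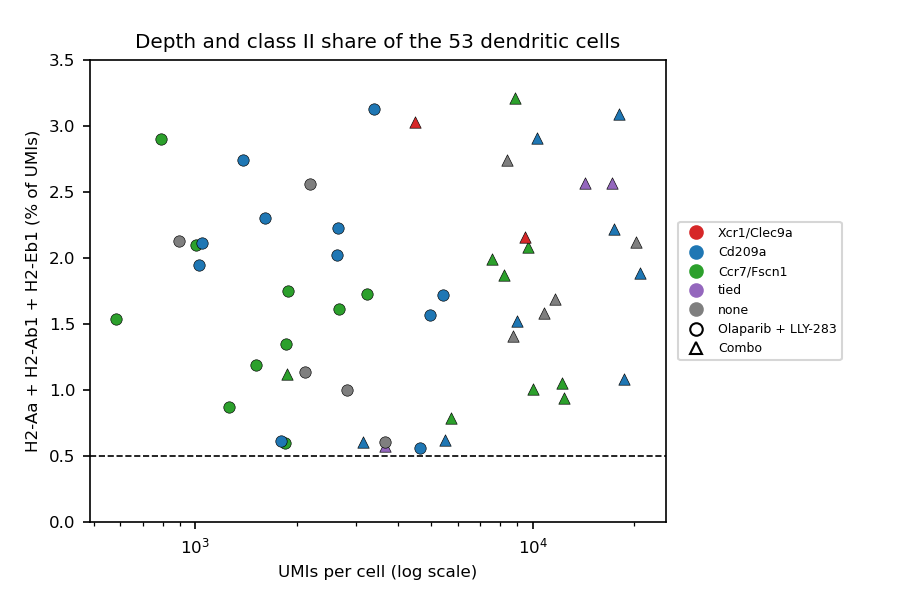
Each point is 1 of the 53 dendritic cells, by its UMIs (horizontal, log scale) and by the percent of its UMIs from H2-Aa, H2-Ab1 and H2-Eb1 (vertical); color gives the subset, circles are Olaparib + LLY-283 and triangles are Combo, and the dashed line is the class II limit of 0.5%. The circles lie at 583 to 5421 UMIs and the triangles at 1875 to 20795, while both spread over the same class II range.

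The markers that gave the label were also the genes that chose the cells, so their levels describe the choice and do not check the label. Flt3, the growth factor receptor of conventional dendritic cells, had 21 UMIs in 10 of 27 Combo cells and 0 in the 26 Olaparib + LLY-283 cells (exact upper limit of 13.2% for cells with a UMI). At the lower depth of the latter, this is no limit on cells that express Flt3. Zbtb46, a transcription factor of conventional dendritic cells, had 4 UMIs in 3 cells and 8 in 5 cells. Xcr1, a chemokine receptor, had 0 and 10 UMIs, the 10 in 1 cell, and Clec9a, a receptor for dead cells, 0 and 3 UMIs. Thus 4 of the 7 label markers were seen in the Olaparib + LLY-283 cells and 7 of 7 in the Combo cells. The choice rested on 1 UMI of the 9 choosing genes in 12 of the 26 cells and in 4 of the 27, whereas 0 and 8 cells carried 10 or more.

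Cd209a, Ccr7 and Fscn1 were carried by more cells. Cd209a, a C-type lectin, had 19 UMIs in 11 Olaparib + LLY-283 cells and 60 in 11 Combo cells. In cells thinned to 1000 UMIs (3 Olaparib + LLY-283 cells under that depth left out), 34.8 and 18.5% of the dendritic cells had a Cd209a UMI (42.3 and 40.7% unthinned), against 0 and 0.0477% of tumor cells used as a reference for free RNA, namely those with at least 10 keratin UMIs and no UMI of Ptprc (median depths of 14165 and 49611.5 UMIs). Ccr7 had 20 UMIs in 8 cells and 186 in 8 cells, and thinned shares of 21.7 and 22.2% against 0 in both sets of tumor cells. Fscn1 stood apart from these, since tumor cells carried it too. Its thinned shares were 26.1 and 11.1% in dendritic cells and 15.5 and 17.5% in tumor cells, and its summed level of 153 and 250 CPM (counts scaled to a total of 1000000) stood beside 172 and 179 CPM in the tumor cells. A lone Fscn1 UMI did not separate dendritic cells from tumor cells, and whether it was free RNA was not tested. In all, 2 cells in each library were in the Ccr7/Fscn1 subset with no Ccr7 UMI.

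Class II presentation genes stood high in the profile of the dendritic cells. By the smaller ratio of both libraries, Ccl22, Mgl2 and then H2-Ea-ps stood farthest above the other kept cells. Of 1052 genes with at least 50 UMIs over the 53 cells (the choosing genes left out), 177 (16.8%) were at least 4-fold above the other kept cells in both libraries. The median gene stood at a log2 ratio of 0.13 in each library. Of the 8 measured genes of the class II presentation list outside the choice, 7 were among those 177. So were 9 of 10 measured genes of the mature dendritic cell list and 5 of 5 of the list of chemokine and growth factor receptors. C1q macrophages and monocytes, both defined further on, had more of the receptor list, at 2435 and 2892 CPM and 2726 and 3086 CPM against 1887 and 2490 CPM. They had less of the mature list, at 1812 and 1991 CPM and 1954 and 2069 CPM against 4098 and 4428 CPM. The choosing genes were left out of these sums. The class II share is what the description of chosen cells gives, and the other genes were measured in the same cells that class II RNA had picked.

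Cd74, the invariant chain that escorts class II to the endosome, was found in all 53 cells, at 16919 CPM (15884 to 18004) in the Olaparib + LLY-283 cells and 19653 (19145 to 20172) in the Combo cells. This was 234- and 142-fold above the other kept cells. C1q macrophages, here kept cells with at least 0.5% of C1q UMIs and within the same neutrophil and keratin limits (369 and 186 cells), had 915 and 1006 CPM. Cd74 was thus higher in the dendritic cells than in the macrophages of the same library, for both libraries.

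H2-Ea-ps (chr17:34341959-34344645, minus strand), the alpha chain partner of H2-Eb1, is listed by GENCODE as a polymorphic pseudogene because the reference strain C57BL/6 does not express it. BALB/c mice carry a working copy. It was found in all 53 cells too, at 5475 CPM (4893 to 6107) and 7146 CPM (6841 to 7462), which was 444- and 317-fold above the other kept cells. The macrophages had 165 and 193 CPM, and monocytes 1037 and 556 CPM. The choosing chains stood at 6564 and 8107 CPM for H2-Aa, 5220 and 5614 for H2-Ab1 and 4234 and 5534 for H2-Eb1.

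The peptide-loading machinery followed. H2-DMa had 816 and 707 CPM, H2-DMb1 595 and 517 CPM and H2-DMb2 306 and 423 CPM, the subunits of the exchange factor that loads peptide onto class II. The corresponding macrophage levels were 233 and 260 CPM for H2-DMa and 34.6 CPM or less for H2-DMb1 and H2-DMb2. Ciita (chr16:10480059-10528418), the coactivator itself, had 10 UMIs in 4 cells and 52 in 16 cells, or 170 and 180 CPM, against 2.02 and 5.69 CPM in macrophages. Ctss, the protease that trims the invariant chain, went the other way, with 1071 and 1331 CPM in dendritic cells and 2266 and 2297 CPM in macrophages. H2-Oa had 2 and 12 UMIs and H2-Ob 0 and 7, so the modulators of the loading factor were near the limit of detection.

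Outside antigen presentation, the genes farthest above the other kept cells included chemokines and lectins. Ccl22, a chemokine for Ccr4-bearing T cells, had 11 UMIs in 6 cells and 45 in 7 cells, 788- and 757-fold above the other kept cells, and 0 in the macrophages of both libraries. Ccl17, its relative with the same receptor, had 21 UMIs in 12 cells and 55 in 9 cells, 36 of the 55 in a single cell. Mgl2, a lectin of dendritic cells and some macrophages, reached 1411 and 655 CPM against 3.66 CPM or less in the C1q macrophages of either library. The aspartic protease Napsa had 578 and 475 CPM, and Itgax, the integrin CD11c that is used to sort dendritic cells, 119 and 149 CPM. The same part of the ranking held Plet1, Dcstamp, Cbfa2t3, Ramp3, Rnase6, Gpr171, Pmaip1, Plbd1, Pkib and Nr4a3, with at least 82.2-fold (Nr4a3, Olaparib + LLY-283) in either library. Dcstamp, which is known from cell fusion of osteoclasts and is also made by dendritic cells, had 4 and 47 UMIs. Several of these genes were also found in class II cells without a choosing gene, described further on.

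Transcription factors of the lineage were measured as well. Of 14 measured genes of that list, 8 were at least 4-fold above the other kept cells in both libraries, beside 16.8% of all 1052 genes. Macrophages and monocytes carried the list at similar levels. With the choosing genes left out, it summed to 3741 and 4736 CPM in the dendritic cells. The sums were 2914 and 3559 CPM in the C1q macrophages and 3522 and 5355 CPM in the monocytes. Spi1 (PU.1), a myeloid master regulator, had 527 and 347 CPM, and Id2, a factor of conventional dendritic cells, 323 and 652 CPM. Irf8, which the Xcr1 lineage and plasmacytoid cells depend on, had 11 UMIs in 4 cells and 160 in 15 cells, or 187 CPM (93.4 to 335) and 555 CPM (472 to 648). Irf4, a factor of the other conventional lineage and of activated cells, had 0 UMIs and 14 UMIs in 8 cells.

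**Figure D2:**
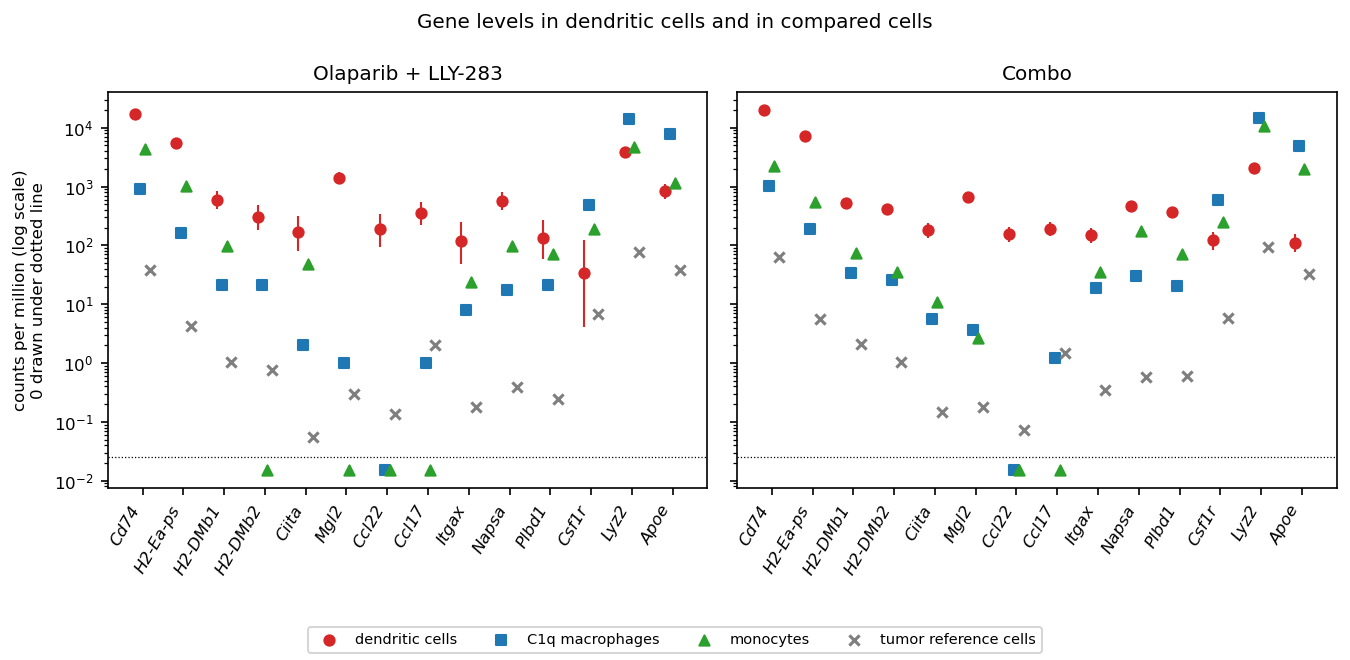
Summed CPM (log scale) of 14 genes in dendritic cells (red, with exact Poisson 95% intervals), C1q macrophages (blue squares), monocytes (green triangles) and tumor reference cells (gray crosses), by library; symbols under the dotted line are at 0. Cd74 to Ccl17 and Itgax to Plbd1 are highest in dendritic cells, and Csf1r, Lyz2 and Apoe are highest in macrophages.

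Markers of other cells were counted over whole lists. The macrophage list, without C1q, summed to 2976 and 1248 CPM in the dendritic cells and to 20880 and 17295 CPM in the macrophages, with Spp1 as its most abundant gene in the dendritic cells (62 and 211 UMIs). Adgre1 (F4/80) had 0 UMIs and 1 UMI in the dendritic cells against 212 and 221 CPM in the macrophages. Csf1r, the receptor of macrophage growth factor, had 34.0 and 121 CPM against 478 and 579 CPM. The C1q limit of the choice had removed 2 cells in each library, and its part in these gaps was not tested.

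The monocyte list summed to 7380 and 4341 CPM in the dendritic cells, against 12181 and 17874 CPM in monocytes (a UMI each of Ly6c2 and Ccr2, 16 and 40 cells). Its most abundant gene was Lyz2, lysozyme, and Lyz2 was held by few cells. In the Olaparib + LLY-283 library 1 cell had 101 of 229 UMIs and another 52, and 1 Combo cell had 355 of 599. In the 5 Olaparib + LLY-283 cells with a UMI of no subset gene, the monocyte list reached 16236 CPM (14003 to 18723), and the macrophage list 6185 CPM, beside 1804 CPM of the conventional dendritic cell list. These sums were uneven, since the monocyte share ran from 0 to 3.19% of a cell's UMIs (median 0.534%) and the macrophage share from 0 to 1.26% (median 0.142%), so the markers went against the name in part of the 5 cells. A choice without Batf3 and Il12b kept 23 Olaparib + LLY-283 cells and so dropped some of these 5. The log2 ratio of Ccl2, Combo over Olaparib + LLY-283, was then 1.93. The part of all 5 cells in the results was not tested.

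Most lists of more distant cells held few UMIs, and the fibroblast, Langerhans, osteoclast and B cell lists held more. The neutrophil list had 8 and 7 UMIs, the T cell list 2 and 2, the NK cell list 1 and 0, the endothelial list 1 and 10 and the tumor list outside Krt8 and Krt18 1 and 16, 11 of them Epcam in 4 cells. The osteoclast list had 6 and 61 UMIs, 4 and 47 of them Dcstamp. The B cell list had 4 and 41 UMIs, 23 of the 41 of Ighm, and the mast cell list 1 and 23, 22 of the 23 of Kit in 9 cells. Fibroblast genes had 34 and 96 UMIs, led by Col1a2, at 578 and 333 CPM against 2960 and 2911 CPM in the other kept cells. The Langerhans list had 4 and 91 UMIs, 74 of the 91 of Mfge8 with 38 in 1 cell, while Cd207 (langerin) had 0 and 6.

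Each dendritic cell was assigned to the marker set with the most UMIs, the sets being Xcr1 with Clec9a, Cd209a alone, and Ccr7 with Fscn1. In the Olaparib + LLY-283 library 11 cells were Cd209a (42.3%, 23.4 to 63.1%), 10 were Ccr7/Fscn1 (38.5%, 20.2 to 59.4%), 0 were Xcr1/Clec9a and 5 had a UMI of none. In the Combo library 8 were Cd209a (29.6%, 13.8 to 50.2%), 9 were Ccr7/Fscn1 (33.3%, 16.5 to 54.0%), 2 were Xcr1/Clec9a (7.41%, 0.91 to 24.3%), 3 were tied and 5 had none. The intervals of each subset overlapped between the libraries. A total of 0 and 7 cells carried UMIs of more than 1 set. With those cells given no subset, 5 Combo cells (18.5%) were Cd209a, 1 (3.70%) was Xcr1/Clec9a and 9 (33.3%) were Ccr7/Fscn1.

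**Figure D3:**
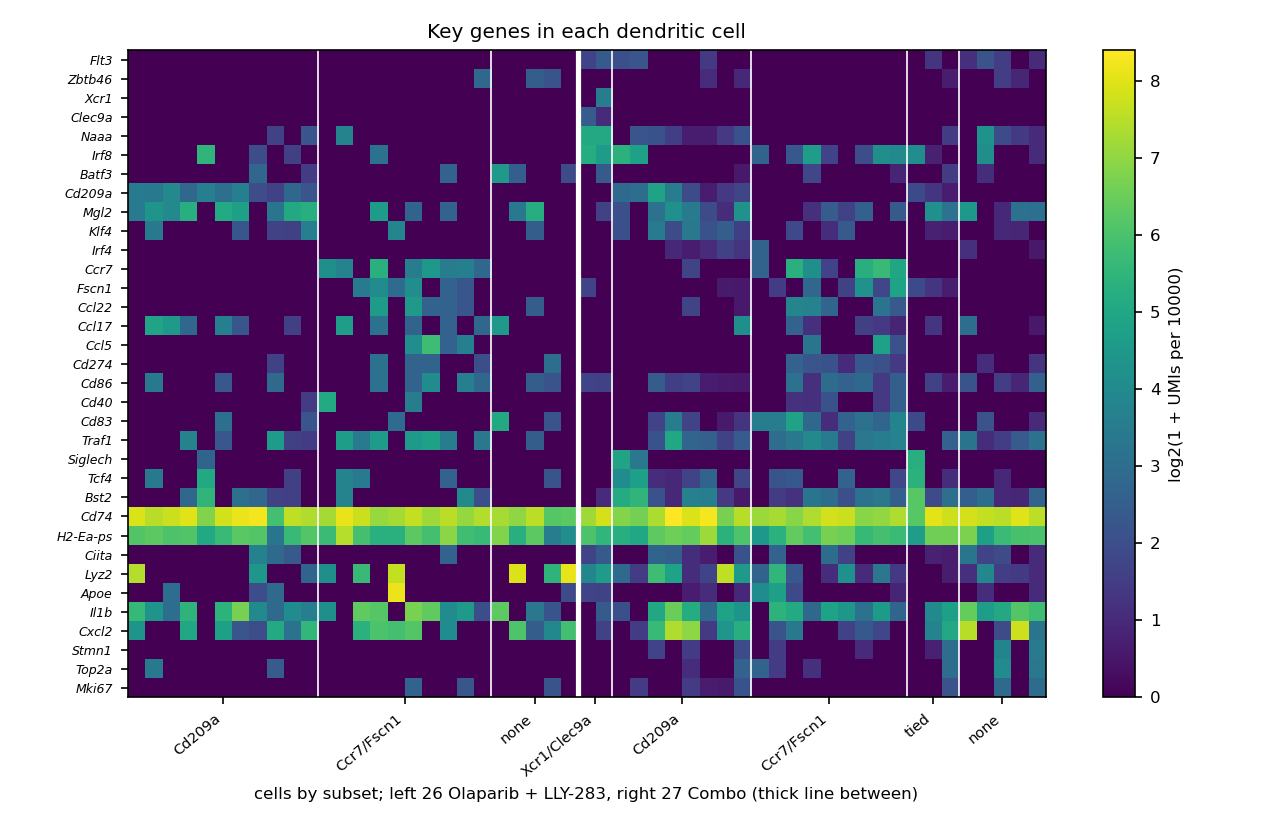
Each column is a dendritic cell and each row a gene, colored by log2(1 + UMIs per 10000); the 26 Olaparib + LLY-283 cells are left of the thick line and the 27 Combo cells right of it, ordered by subset and then by depth. Cd74 and H2-Ea-ps are bright in every column, Ccl5 and Cd40 are mostly in Ccr7/Fscn1 columns, and Siglech, Naaa and the cell cycle genes are each bright in a few Combo columns.

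The Ccr7/Fscn1 cells carried the genes of mature dendritic cells. A total of 36 of 1052 genes (3.42%) were at least 2-fold above the other dendritic cells in both libraries (1 among genes of at least 200 UMIs), and 6 of the 10 measured genes of the mature dendritic cell list were among them, with 0 lower. The median of those 10 genes was 1.70 and 2.03 on the log2 scale, beside −0.04 and −0.12 for all 1052. The 6 were Ccl22, Cd86, Marcks, Tmem123, Samsn1 and Cxcl16. The whole list, Ccr7 and Fscn1 left out, summed to 7995 CPM (6694 to 9475) and 10145 CPM (9444 to 10884) in these cells, against 2686 and 2891 CPM in the Cd209a cells. As the choosing genes and the list describe the same state, this count carries no test.

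Ccl5, a chemokine for T cells and myeloid cells, was carried in both libraries by Ccr7/Fscn1 cells alone. They held 17 of 17 UMIs in the Olaparib + LLY-283 library, in 4 of the 10 cells, and 44 of 44 in the Combo library, in 3 of the 9 cells with 33 in 1 of them. At the floor of 3 UMIs over the other dendritic cells, Ccl5 was at least 14.4- and 40.6-fold higher. Serpinb6b, an intracellular serine protease inhibitor, had 9 of 9 and 55 of 55 UMIs in the subset, at least 7.61- and 50.7-fold higher, although its log2 ratio in the former library was −0.21 when the choice was made on cells thinned to 1000 UMIs. Serpinb9, the inhibitor of granzyme B, had 9 of 9 UMIs (at least 7.61-fold) in the former and 47 of 51 in the latter library.

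Ccl22 had 10 of 11 and 40 of 45 UMIs in the Ccr7/Fscn1 cells, log2 ratios of 4.15 and 4.35. Its relative Ccl17 did not follow, with 7 of 21 and 10 of 55 UMIs there and log2 ratios of 0.39 and −0.65. Tbc1d4, a regulator of vesicle traffic, stood at 4.03 and 3.66, Ramp3, a partner of peptide hormone receptors, at 3.84 and 3.37, and Samsn1, an adaptor protein, at 3.31 and 2.93. Tmem123 (2.03 and 2.81) and Marcks (1.95 and 2.40), an actin-binding substrate of protein kinase C, were the remaining genes of the first 10, apart from Apoe. Apoe rested on single cells, with 43 of the 43 UMIs of the Olaparib + LLY-283 subset in a cell that carried 30 Lyz2 UMIs and 1 of Fscn1, and 15 of 21 in a Combo cell with 26 Lyz2 UMIs and 1 of Fscn1. Without cells of at least 10 Apoe UMIs, the Apoe ratio of the former library was −2.22.

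Costimulators and checkpoint ligands were also highest in the Ccr7/Fscn1 cells. The list summed to 2044 CPM (1415 to 2856) and 2141 CPM (1826 to 2495) there, against 720 CPM (452 to 1091) and 1207 CPM (1004 to 1439) in the Cd209a cells. Cd86, a ligand of CD28, had 10 of 17 and 32 of 68 UMIs in the subset, log2 ratios of 1.83 and 1.30. Cd274, which encodes PD-L1, had 4 of 7 and 21 of 25 UMIs. Cd40, through which T cells license dendritic cells, had 4 of 5 and 13 of 13 UMIs. Relb, an NF-κB subunit of dendritic cell maturation, had 4 of 5 and 23 of 30, and Pdcd1lg2 (PD-L2) 0 of 0 and 19 of 25. Cd83, a maturation marker, went opposite ways in the libraries, a difference that was not tested, with 1 of 9 UMIs in the Olaparib + LLY-283 subset and 71 of 98 in the Combo subset. Il12b, a chain of interleukin-12, had 4 UMIs, all in the deepest Combo cell of the subset.

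Other genes were lower in the Ccr7/Fscn1 cells. H2-DMb1 had 1 of 35 and 10 of 149 UMIs there, log2 ratios of −3.18 and −2.26, and Mgl2 5 of 83 and 17 of 189, ratios of −2.49 and −1.83. Itgax had 0 of 7 and 5 of 43. Cd74 itself was close to the other dendritic cells in the Olaparib + LLY-283 library, at 16952 against 16906 CPM. It was somewhat lower in the Combo library, at 16111 against 20934 CPM. H2-DMb1 was the only 1 of 8 measured class II presentation genes at least 2-fold lower in the subset in both libraries. The median of those 8 genes was −0.83 and −0.38 on the log2 scale, beside −0.04 and −0.12 for all 1052 genes.

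The Combo Ccr7/Fscn1 cells varied among themselves. In 3 of them, Ccr7 had 14, 60 and 37 UMIs, Irf8 20, 21 and 19 and Ccl5 7, 33 and 4. In another 2, with 30 and 38 UMIs of Ccr7, Irf8 had 3 and 3 and Ccl5 0 and 0. Among the 10 Olaparib + LLY-283 cells of the subset, 1 had an Irf8 UMI, at a median depth of 1677.5 UMIs per cell against 8879.

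The Cd209a cells were led by Nfkbid, Sdc4, Pycard and Klf4, in this order of the smaller ratio of both libraries. In all, 22 of 1052 genes (2.09%) were at least 2-fold above the other dendritic cells in both libraries, a count that fell to 3 among genes of at least 200 UMIs, 5 with 5 UMIs added to each sum, 8 with the choice made on thinned cells, 10 without the 3 deepest cells of each library and 14 with each cell weighted equally. Klf4, a transcription factor needed by part of the Cd209a lineage, had 10 against 3 UMIs in the Olaparib + LLY-283 library and 48 against 11 in the Combo library, log2 ratios of 1.47 and 2.93. It was the 1 of 4 measured genes of the Cd209a lineage list to pass in both libraries, and it was also found in tumor cells, at 136 and 106 CPM. Mgl2 was at 2227 against 531 CPM in the former library and at 856 against 544 CPM in the latter, log2 ratios of 2.03 and 0.66. Irf4 had 0 UMIs in the former and 11 of its 14 UMIs in the Cd209a cells of the latter.

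Markers of monocytes were higher in these cells than in the Ccr7/Fscn1 cells, but not than in every other group of dendritic cells. In the cells of no set, the monocyte list summed to 16236 and 2537 CPM, with medians of 0.534 and 0.183% of a cell's UMIs. It was thus lower in the Cd209a cells than in the cells of no set in the Olaparib + LLY-283 library. The monocyte list summed to 5731 CPM (4914 to 6646) and 7679 CPM (7152 to 8234) in the Cd209a cells, with medians of 0.343 and 0.527% of a cell's UMIs, against 4208 and 2363 CPM (medians of 0.167 and 0.106%) in the Ccr7/Fscn1 cells. The Cd209a lineage list, Cd209a left out, summed to 4258 and 3017 CPM in the Cd209a cells. The part of monocyte RNA in the profile of the Cd209a cells was not tested.

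The genes that led the Cd209a cells, Klf4 apart, were of mixed function. Nfkbid, a nuclear regulator of NF-κB, had 3 of 3 and 38 of 53 UMIs there. Sdc4, a heparan sulfate proteoglycan (2.00 and 2.36), Pycard, the inflammasome adaptor (1.82 and 1.59), Hspa5, an endoplasmic reticulum chaperone (1.28 and 1.45), and Ahnak, a large scaffold protein (1.26 and 1.64), followed on the log2 scale, as did Irf2bp2, Ccnd3, Gm2a and Ccnd2. Of these, Irf2bp2 (−1.03) and Ccnd3 (−0.18) turned in the Olaparib + LLY-283 library when the choice was made on thinned cells, and Ccnd2 (−0.26) turned in the Combo library when cells with UMIs of more than 1 set were counted with the other dendritic cells. Lower in the Cd209a cells of both libraries were the genes of the Ccr7/Fscn1 cells, among them Ccl5 with 0 of 17 and 0 of 44 UMIs and Ccl22 with 0 of 11 and 5 of 45. The subsets divide the same cells, so these ratios are not independent of each other.

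**Figure D4:**
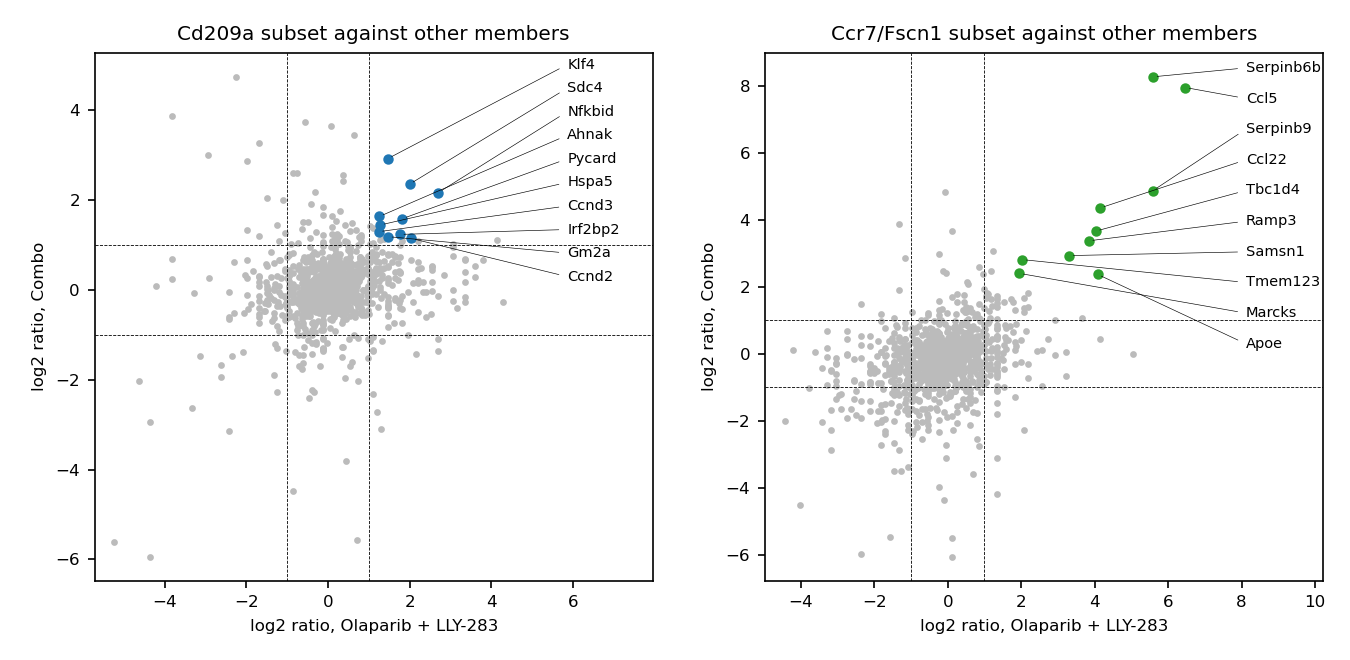
Log2 ratio of summed CPM between a subset and the other dendritic cells, for 1052 genes, in the Olaparib + LLY-283 library (horizontal) and the Combo library (vertical), with dashed lines at 2-fold; left, Cd209a cells, right, Ccr7/Fscn1 cells, with the 10 leading genes named. Genes at 0 UMIs on one side are placed by the 0.5 UMI added to each sum, so the positions of Serpinb6b, Ccl5 and others at 0 are set by that value, and Klf4 reaches 2.93 in the left panel.

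The 2 Xcr1/Clec9a cells were both in the Combo library, with 4482 and 9491 UMIs, and no test or comparison between libraries was possible. The deeper cell carried 10 UMIs of Xcr1, 1 of Clec9a, 4 of Flt3 and 4 of Batf3, the factor this lineage needs, and the other 2 of Clec9a and 1 of Flt3. Naaa, a lysosomal amidase typical of the lineage, had 31 and 15 UMIs, or 46 of the 91 of all Combo dendritic cells, at 3292 CPM (2410 to 4391) against 164. Irf8 had 23 and 16 UMIs, at 2791 CPM (1985 to 3816) against 441. Mpeg1, a pore-forming protein of phagosomes, had 16 of 62 UMIs. The other leading genes were Baz1a, a chromatin remodeling subunit (15 UMIs against 40 in the other 25 Combo cells), Sla (12 against 39), Orai1, a calcium channel (14 against 47), Malat1, a nuclear noncoding RNA (825 against 3474, or 59042 against 12659 CPM), Rnase6 (9 against 41), Cd9 (7 against 33) and Cd2ap (9 against 42). A high share of nuclear RNA thus moved with these 2 cells, and its part in their profile was not tested. From the lists of the lineage and of nucleic acid sensors, Wdfy4, which is needed for cross-presentation, 7 of 28, Ppt1, a lysosomal thioesterase, 13 of 27, and Unc93b1, the chaperone of nucleic acid-sensing Toll-like receptors, 8 of 46.

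The same cells held few chemokine UMIs and few of Il1b and Traf1. Cxcl2, a neutrophil chemokine, had 2 UMIs in them against 1072 in the other 25 Combo cells, Il1b 4 against 811 and Traf1 0 against 179. The chemokine list summed to 286 CPM (78.0 to 733) there and to 6193 CPM over all Combo dendritic cells. That sum was uneven, with a median of 0.657% of a cell's UMIs in Cd209a cells, 0.169% in Ccr7/Fscn1 cells and 0.123% in cells of no set, where 1 cell reached 3.14%. Another Combo cell, without a UMI of Xcr1 or Clec9a, carried 16 UMIs of Naaa, 15 of Irf8 and 3 of Flt3 in 8770 UMIs, and was counted with the cells of no set. The Olaparib + LLY-283 library had 0 of 26 such cells (exact interval 0 to 13.2%), at a much lower depth per cell, so its share could not be compared with the Combo share of 7.41%.

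Siglech was carried by 4 dendritic cells. This lectin of plasmacytoid dendritic cells had 1 UMI in an Olaparib + LLY-283 Cd209a cell and 9, 5 and 14 in 3 Combo cells, which were Cd209a cells or tied. In the same order, Tcf4, the factor of the plasmacytoid lineage, had 6, 5, 14 and 15 UMIs, Bst2, an interferon-induced surface protein used as a plasmacytoid marker, 8, 11, 24 and 27, and Irf8 8, 13, 15 and 6. All 4 sat low in class II, at 0.611, 0.605, 0.619 and 0.574%, just inside the limit. All 28 Irf8 UMIs of the Combo Cd209a cells were in 2 of these cells.

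Cells with many UMIs of cell cycle genes were found in the Combo library, whose cells were also the deeper ones (median of 9661 against 1871 UMIs). In 4 Combo cells there were 11, 12, 17 and 19 UMIs of Top2a, a topoisomerase of dividing cells, and 7, 6, 7 and 14 of Mki67, the proliferation marker, and 0 of the 4 were in the Ccr7/Fscn1 subset. No Olaparib + LLY-283 cell had more than 2 Top2a UMIs, and Top2a (log2 ratio 1.91), Hmgb2 (1.43) and Stmn1 were the 3 of 4 measured cell cycle genes at least 2-fold higher in the Combo cells, beside 7.03% of all genes. Depth moved with this result. In cells thinned to 1000 UMIs, 4.35 and 3.70% of the dendritic cells had a Top2a UMI and 8.70 and 0% a Mki67 UMI. Stmn1 stood at −1.66 when the choice was made on thinned cells. That choice took in Olaparib + LLY-283 cells not described here, since those described held 0 Stmn1 UMIs. The Stmn1 value thus says nothing about depth in the described cells. The cell cycle list summed to 1139 CPM (883 to 1447) and 2497 CPM (2317 to 2686), against 3881 and 3760 CPM in the other kept cells.

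Anti-PD-1 was the added agent of the Combo group, and the summed dendritic cells of both libraries were compared gene by gene. Of 1052 genes, 74 (7.03%) were at least 2-fold higher in the Combo cells and 44 (4.18%) at least 2-fold lower, around a median log2 ratio of 0.004. The balance turned with the handling of low counts, to 8 higher and 65 lower with 5 UMIs added to each sum and to 2 higher and 6 lower among genes of at least 200 UMIs. With 1 library per group, these are differences between 26 and 27 cells, and an effect of the treatment cannot be told apart from one of the library. Of the 74 genes, 15 had 3 or fewer UMIs in the Olaparib + LLY-283 cells. These 15 were all of the 1052 genes with so few UMIs there. A gene that low passed the UMI minimum, set on the sum of both libraries, only through the Combo cells. That minimum thus fixed the direction of the 15, and their count says nothing about the treatment.

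Among the genes higher in the Combo cells, Stmn1, a tubulin regulator of dividing cells, had 0 UMIs in the Olaparib + LLY-283 cells and 61 in 9 Combo cells, at least 4.15-fold higher at the floor of 3 UMIs. Naaa had 4 against 91 UMIs, a log2 ratio of 2.05 (exact 95% interval of the fold 1.75 to 17.4). The 2 Xcr1/Clec9a cells held 46 of the 91, and without them the Combo cells had 164 CPM of Naaa against 68.0 CPM. Mpeg1 had 2 against 62 UMIs. Nr4a3, an immediate early nuclear receptor linked to dendritic cell migration, had 3 UMIs in 3 cells against 79 in 16 cells, a ratio of 2.21 (fold 1.77 to 26.6). Irf8 stood at 1.51 (fold 1.61 to 6.06). Rab10 (1 against 60 UMIs in 23 cells, fold 8.22, 2.11 to 491), a small GTPase of membrane traffic, Sla (1 against 51), Hist1h2ap (2 against 75, 41 in 1 cell), Tmpo (2 against 50), Txnrd1 (2 against 49) and Dcun1d5 (2 against 49) made up the rest of the first 10. These first 10 genes had 4 or fewer UMIs in the Olaparib + LLY-283 cells. They reached the minimum of 50 UMIs through the Combo cells, so that minimum fixed their direction. In the Combo library, Rab10 (208 against 164 CPM), Tmpo (173 against 147), Txnrd1 (170 against 169), Dcun1d5 (170 against 151) and Stmn1 (211.5 against 139) stood near the other kept cells. Hist1h2ap stood below them, and Naaa, Mpeg1, Nr4a3 and Sla well above. Stmn1, Hist1h2ap and Tmpo turned the other way when all cells were thinned to 1000 UMIs before the choice. That choice took in Olaparib + LLY-283 cells not described here, since those described held 0 Stmn1 UMIs.

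Of the 10 leading genes lower in the Combo cells, several rested on single cells. Apoe, the lipid carrier of macrophages, had 49 UMIs, 43 of them in 1 cell, against 32, a log2 ratio of −2.90. Ly6a (Sca-1), an interferon-responsive surface protein, had 84 UMIs with 37 in 1 cell against 65 with 41 in 1 cell, and Fabp5, a fatty acid binding protein, 56 with 39 in 1 cell against 73 with 52 in 1 cell. Ccl2, a monocyte chemokine, had 20 UMIs with 19 in 1 cell against 31. Spread more evenly were Mmp12, a macrophage elastase (27 UMIs in 7 cells against 29 in 10, log2 ratio −2.19, fold lower 2.60 to 7.99), Plin2, a lipid droplet coat protein (25 UMIs in 8 cells against 32 in 19, −1.94), Klf2, a quiescence factor (37 in 10 cells against 49 in 15, −1.89), and Eif4ebp1, a repressor of translation (26 in 15 cells against 41 in 17, −1.65). Ccl3 (−1.99) and Ctsl (−1.67) completed the first 10. Of these genes, Apoe, Ccl2, Ccl3, Fabp5 and Plin2 turned to the other side of equality under at least 1 other setting of the choice. Mgl2 was lower too, at −1.11 (fold lower 1.64 to 2.80). The sum of the macrophage list, which holds Apoe and Mmp12 itself, was 2976 CPM in the Olaparib + LLY-283 cells and 1248 CPM in the Combo cells. That sum was uneven, with up to 3.24% of a cell's UMIs in the Olaparib + LLY-283 Ccr7/Fscn1 cells. The median shares were 0.173 and 0.116% in Cd209a cells, 0.0541 and 0.0563% in Ccr7/Fscn1 cells and 0.142 and 0.114% in cells of no set. In the Olaparib + LLY-283 library, Apoe, Ctsl, Plin2, Ccl2 and Ccl3 were higher in C1q macrophages than in dendritic cells. Fabp5, Mmp12, Klf2, Ly6a and Eif4ebp1 were lower in those macrophages. The part of macrophage RNA in these differences was not tested.

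**Figure D5:**
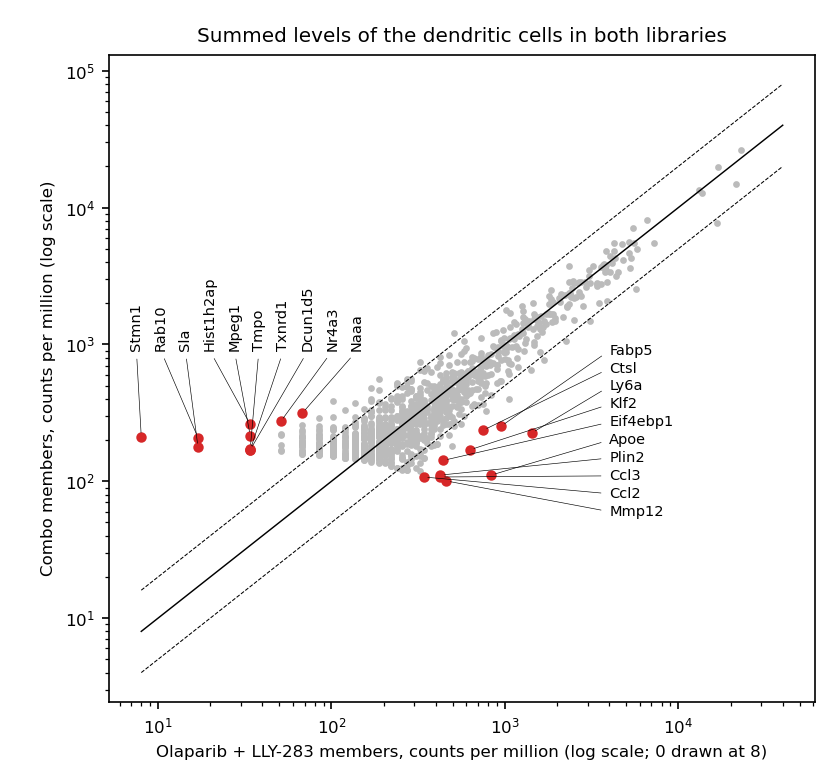
Summed CPM of 1052 genes in the Olaparib + LLY-283 dendritic cells (horizontal, log scale) and the Combo dendritic cells (vertical, log scale), with lines at equality (solid) and 2-fold (dashed); red points are the 10 genes farthest from equality in each direction. Stmn1, at 0 UMIs in the former, is drawn at the left edge, and most of the other genes lie between the dashed lines.

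Antigen presentation genes were near the background of all genes, of which 7.03% were 2-fold higher and 4.18% 2-fold lower in the Combo cells. All 13 measured class I genes were within 2-fold (median log2 ratio −0.03), with H2-K1 at 1275 and 1432 CPM and B2m, the common light chain, at 1632 and 1234 CPM. Of the 8 measured class II presentation genes, 7 were within 2-fold, and Ctsl was lower. The class I list summed to 10185 and 9962 CPM, close to 9529 and 9947 CPM in the other kept cells, so class I did not set the dendritic cells apart.

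Cytokine and chemokine RNA was found in both libraries. The chemokine list summed to 6564 and 6193 CPM in the dendritic cells, lower than the 12308 and 10501 CPM of the macrophages and the 21516 and 14043 CPM of the monocytes. Il1b, interleukin-1 beta, had 147 UMIs in 21 of 26 cells and 815 in 23 of 27, or 2500 CPM (2112 to 2938) and 2826 CPM (2635 to 3027), against 241 and 290 CPM in macrophages and 3232 and 1799 CPM in monocytes. Cxcl2 had 2347 and 3724 CPM, 251 of the 1074 Combo UMIs in 1 cell. Il15 had 3 and 4 UMIs and Il18 0 and 3. Of 11 measured chemokines, 9 were within 2-fold between the libraries and 2, Ccl2 and Ccl3, were lower in the Combo cells, beside 4.18% of all genes. Both rested on few cells, with 19 of 20 Ccl2 UMIs of the Olaparib + LLY-283 cells in 1 cell, and both turned under other settings, to 1.80 for Ccl2 with class II from 1% and to 0.04 for Ccl3 without the 3 deepest cells of each library. Cxcl11, a chemokine for Cxcr3-bearing T cells, had 4 and 0 UMIs.

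Interferon-stimulated genes summed to 7975 CPM (7269 to 8730) in the Olaparib + LLY-283 cells and 5846 CPM (5570 to 6132) in the Combo cells, against 12953 and 12468 CPM in monocytes. The median share of a cell's UMIs ran the other way. It was 0.391 and 0.645% in Cd209a cells, 0.407 and 0.714% in Ccr7/Fscn1 cells and 0.392 and 0.527% in cells of no set. Among Combo cells without a counterpart, it was 0.185% in Xcr1/Clec9a and 1.02% in tied cells. The Olaparib + LLY-283 sum was uneven, with shares of up to 2.98% in Cd209a and 2.32% in Ccr7/Fscn1 cells. Whether the libraries differed was not tested. Of 6 measured genes of that list, 5 were within 2-fold and 1, the transcription factor Irf1 (log2 ratio 1.36), was higher in the Combo cells, which is near the share of all genes (7.03% higher). Ifitm3, an antiviral membrane protein, had the most UMIs (204 and 576, or 3469 and 1997 CPM). Of the drug targets, Pdcd1, which encodes PD-1, had 7 UMIs in 5 cells and 13 in 5 cells, or 119 and 45.1 CPM, against 0 and 0.407 CPM in macrophages, and the 13 Combo UMIs were in Ccr7/Fscn1 cells (11) and Cd209a cells (2). Parp1 had 2 and 21 UMIs and Prmt5 2 and 4, too few to compare.

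The class II cells that lacked every choosing gene help to place the choice. They had 14884 and 14628 CPM of Cd74 and 4406 and 4466 CPM of H2-Ea-ps, near the dendritic cells. They also had 7573 and 7435 CPM of Lyz2 against 3894 and 2077 CPM, and 323 and 39.4 CPM of Mgl2 against 1411 and 655 CPM. Ccl22, at 17.0 and 13.1 CPM, was at the level of a few UMIs in them. In the Olaparib + LLY-283 library, some leading genes were higher in them than in the dendritic cells. These were Dcstamp (84.9 against 68.0 CPM), Cbfa2t3 (93.4 against 85.0 CPM) and Pmaip1 (161 against 153 CPM). Others were somewhat lower in them, with 127 against 136 CPM of Plbd1, 93.4 against 119 CPM of Itgax and 42.5 against 51.0 CPM of Nr4a3. In the Combo library the same 6 genes were higher in the dendritic cells, among them Dcstamp at 163 against 98.5 CPM and Cbfa2t3 at 201 against 39.4 CPM.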

How the data were processed

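Single-cell RNA was measured with 10x Genomics 3′ libraries from 2 pooled tumor suspensions. Per the file headers and the submitters' processing notes, the authors made UMI counts per gene and cell with Cell Ranger (6.1.2 in the matrix header) on mm10; bcl2fastq and Seurat 4.1.0 are also named. The deposited counts are raw whole numbers for 55450 genes, with no correction for free RNA stated, and the shallowest barcode held 500 UMIs. No cell annotation was used here.

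Cells were chosen by the rule given at the opening of the report, and the members and gene lists were chosen with earlier results of these data known. Named genes were those of 31 fixed lists, the 20 genes farthest above other kept cells (by the smaller ratio of both libraries), the 10 leading genes of each subset and the 10 most different each way between libraries, among genes with at least 50 UMIs. Counts were summed over cells and scaled to CPM, ratios used 0.5 UMI added to each sum, and shares were compared after thinning each cell to 1000 UMIs. Intervals are at the 95% level, and the floor for a count of 0 is 3 UMIs. As there is 1 library per group, no test was made. Doublets were not removed, since Scrublet marked 0 cells. Steps were tested on simulated data. The software was scanpy 1.11.5, matplotlib 3.10.9, pandas 2.3.3, scipy 1.17.1 and numpy 2.4.6 under Python 3.11.15. In all, 14 other settings were run, and 3 more were chosen after seeing the data.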

Additional observations from a re-analysis of the deposited data

Results flagged for a closer look

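A few genes stood on opposite sides in the libraries when the Cd209a cells were set against the other dendritic cells, and none of these differences was tested. On the log2 scale, the ratios, with the Olaparib + LLY-283 library first, were 1.31 and −3.10 for Fabp5, 1.19 and −2.72 for Isg15, −2.93 and 3.00 for Lyz2, −3.81 and 3.88 for Ccl2, −1.09 and 2.01 for Ccl6 and 2.15 and −1.42 for Ccl3. Single cells held many of these UMIs: 39 of 56 and 52 of 73 of Fabp5, 101 of 229 and 355 of 599 of Lyz2, 19 of 20 and 13 of 31 of Ccl2, 17 of 25 and 22 of 31 of Ccl3 and 9 of 25 and 30 of 70 of Isg15 were in 1 cell.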

How the results depend on the processing

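No paired analysis was possible because each group has 1 library, and for the same reason no replicate could be left out. Of the counts and shares recomputed, 20 moved past the limits set and 201 did not. Many of the 201 could not change, since settings of the gene minimum, cell weights, cells summed or added UMIs leave the shares as they are. Others of the 201 did change. With subsets given only to cells without UMIs of the other sets, the Combo shares fell from 7.41 to 3.70% for Xcr1/Clec9a and from 29.6 to 18.5% for Cd209a. With class II from 1%, 29 genes were 2-fold lower in the Combo cells. Thinning to 1000 UMIs before the choice gave a share of 0.0881% in the Olaparib + LLY-283 library, 101 genes 4-fold above other kept cells and 8 genes higher in Cd209a cells. Taking genes from 1 UMI gave 2063 genes 4-fold above other kept cells, 1517 higher and 2200 lower in the Combo cells, 453 higher in Cd209a and 1643 in Ccr7/Fscn1 cells, and from 200 UMIs 39, 2, 6, 3 and 1. Equal weight for each cell gave 94 genes 4-fold above and 14 in Cd209a cells, leaving out the 3 deepest cells of each library 28 lower genes and 10 in Cd209a cells, and adding 5 UMIs 8 higher genes and 5 in Cd209a cells. Of values of single genes, 1582 held, 100 moved and 18 reversed. For Combo over Olaparib + LLY-283, the log2 ratio became 0.02 for Plin2 and 1.80 for Ccl2 with class II from 1%, 1.93 for Ccl2 without Batf3 and Il12b in the choice, 0.11 for Apoe with a keratin limit of 0.05%, 0.04 for Ccl3 without the 3 deepest cells, and −1.66 for Stmn1, −1.68 for Hist1h2ap, −0.61 for Tmpo, 0.37 for Fabp5 and 3.26 for Ccl2 with thinning first. Thinning first also gave −1.03 for Irf2bp2 and −0.18 for Ccnd3 (Cd209a cells, Olaparib + LLY-283), −0.21 for Serpinb6b (Ccr7/Fscn1 cells, Olaparib + LLY-283) and −0.46 for Apoe (Ccr7/Fscn1 cells, Combo). Ccnd2 in Combo Cd209a cells was −0.26 when cells with UMIs of more than 1 set were counted with the other dendritic cells. Apoe in the Olaparib + LLY-283 Ccr7/Fscn1 cells was −2.12 without Fscn1 in the choice, −2.44 with the keratin limit of 0.05% and −2.22 without cells of at least 10 Apoe UMIs, an alternative chosen after seeing the data. The cause of these changes was not tested, except that fewer or more genes were counted at the other UMI minimums and each of the 3 last settings left out the cell with 43 Apoe UMIs. Thinning first also took in Olaparib + LLY-283 cells not described here, since those described held 0 Stmn1 UMIs. The Xcr1/Clec9a gene count needs cells of both libraries and could not be made. The planned Scrublet alternative was not run because its thresholds (0.651 and 0.552) lay above every score and marked 0 cells; without the 2055 and 284 cells of highest score, chosen after seeing the data, 0 dendritic cells were lost. Depth limits the Olaparib + LLY-283 cells most, since 3 UMIs there are 51.0 CPM.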
